A study of Mus musculus with 8 samples.

Results

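The genes described here encode the proteins of the cytosolic ribosome, measured in prefrontal cortex (PFC) tissue of mice that overexpressed *Rnf146*, an E3 ubiquitin ligase, or eGFP alone. Members were chosen by symbol, without use of their values: every gene named Rpl or Rps with a number and at most a further letter and digit, the stalk genes *Rplp0*, *Rplp1* and *Rplp2*, and *Rpsa*, with the Rps6 kinases left out. Copies with a longer symbol, such as *Rps27rt* and *Rpl10-ps3*, are thus no members. The rule found 81 of the 15039 genes in the table, of which 45 encode proteins of the large subunit, 33 proteins of the small subunit and 3 proteins of the stalk. All mice were wild-type males of the C57BL/6NCrljOri strain, aged 6 weeks when an AAV2/1 vector was injected into the PFC of both hemispheres. The Rnf146-overexpressing group received AAV2/1-hsyn-RNF146-eGFP, which carries mouse Rnf146 and eGFP, and the control group received AAV2/1-hsyn-eGFP. Both groups thus shared surgery, virus type and eGFP. The hsyn promoter drives expression in neurons, whereas the RNA came from whole dissected PFC 4 weeks later, from transduced and other cells together. The Rnf146-overexpressing mice that were sequenced had, according to the study's text, shown both the overexpression and a deficit in social behavior. Each group had 4 libraries.

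A cytosolic ribosome is built from ribosomal RNA and about the same amount of each ribosomal protein, and unpaired proteins are degraded. The small subunit decodes the mRNA, the large subunit joins amino acids, and the stalk recruits the translation factors. Most ribosomal protein mRNAs begin with a terminal oligopyrimidine (TOP) tract, a C followed by further pyrimidines at the 5' end, through which mTOR signaling controls their translation as a group. RNA sequencing reads the amount of the mRNA and not its translation.

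The deposited values are on a log2 scale and had been centred within pairs, so that the eGFP and the Rnf146 value of a replicate number add up to the same sum in all 4 pairs of a gene. A gene therefore carries its mean and 4 pair differences, the Rnf146 value minus the eGFP value with the same replicate number, and a high value in one group is mirrored by a low value in the other. Differences are given on this log2 scale, as the mean ± SD of the 4 pairs. Limma was fitted over all genes with a block for the replicate number, and a call needed an adjusted p not above 0.1. *Rnf146* itself was at 10.35, 10.50, 10.43 and 10.47 in the eGFP libraries and at 13.17, 13.01, 13.08 and 13.05 in the Rnf146 libraries, so every library matched its label. Of all 15039 genes, 188 were called (1.25%), 123 of them higher (0.818%) and 65 lower (0.432%). Depth is unknown, since the values hold no read counts.

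None of the 81 ribosomal protein genes was called in either direction, beside 1.25% of all genes. The smallest adjusted p of a member, from limma with the block, was 0.12. An unadjusted p below 0.05 was found for 3 of the 81 members (3.70%) and for 12.4% of all genes. The mean difference was above 0 for 43 members and below 0 for 38, with a median of 0.00056 and a range from -0.26 to 0.16. The median size of the mean difference, regardless of sign, was 0.029 for the members and 0.049 for all genes. In 9 of the 81 members (11.1%) all 4 pair differences had the same sign, so that the groups did not overlap, compared with 20.6% of all genes. A fit without the block, which treats the centred values as 8 independent libraries, called 8 of the 81 members (3 higher, 5 lower), beside 21.5% of all genes.

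**Figure D1:**
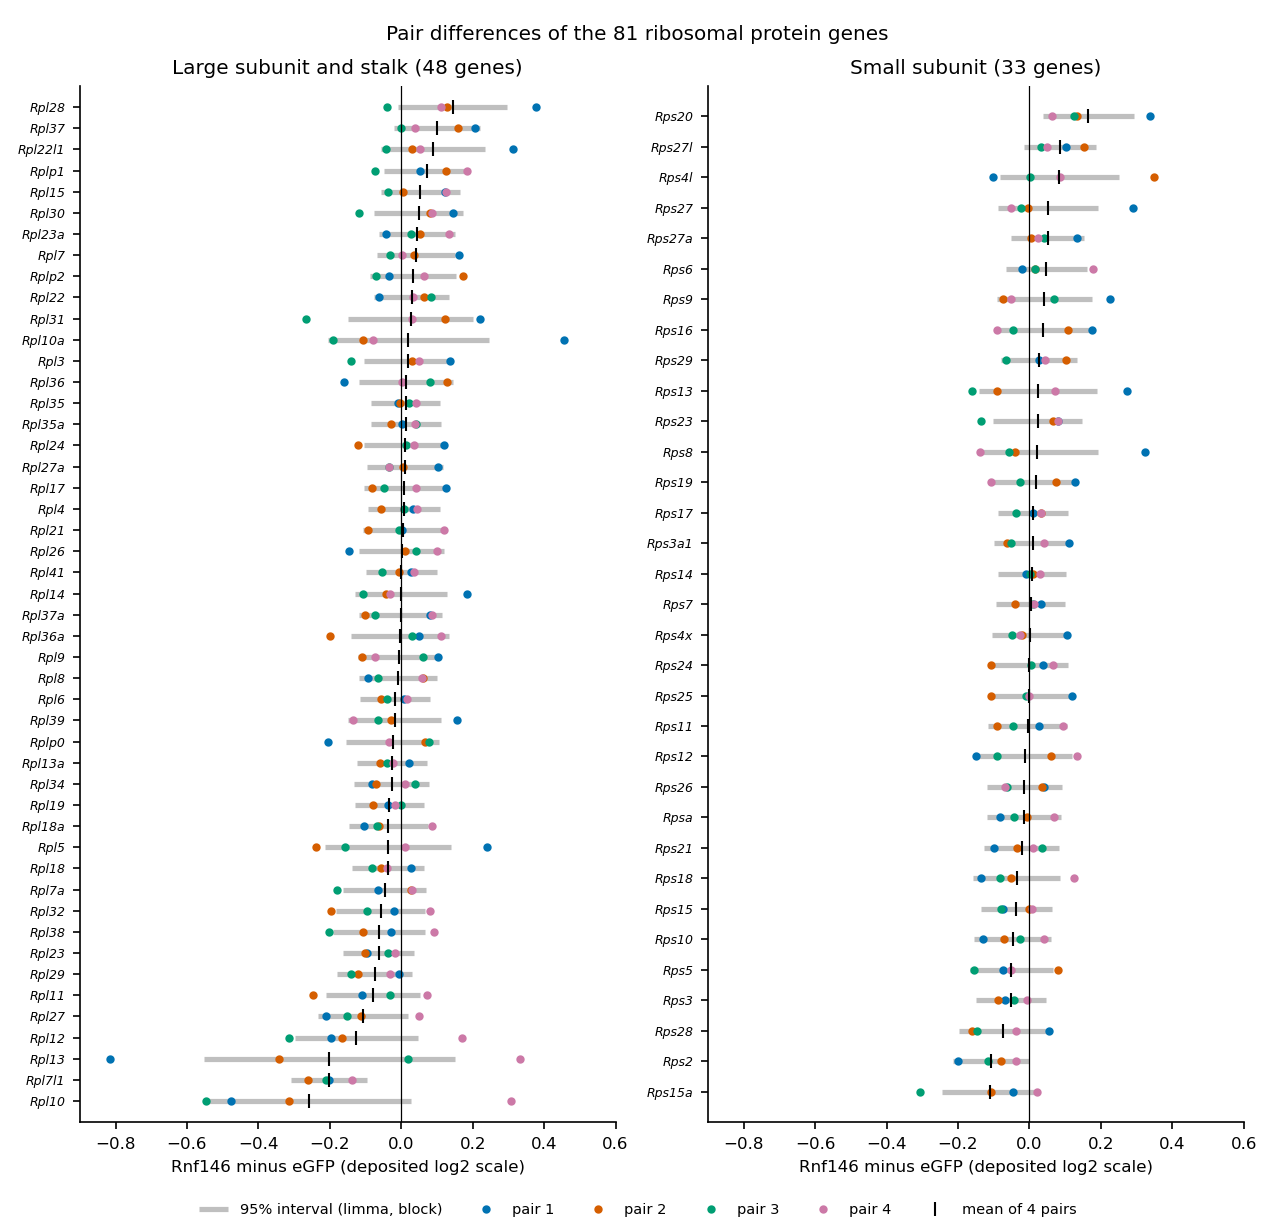
Each row is 1 ribosomal protein gene, ordered by its mean difference, with the large subunit and stalk genes on the left and the small subunit genes on the right. The horizontal axis is the Rnf146 value minus the eGFP value on the deposited log2 scale, the colored points are the 4 pairs, the black tick is their mean and the gray bar is the 95% interval from limma. Most bars cross 0 and most points lie close to it, while *Rpl13*, *Rpl10* and *Rpl10a* spread widely between pairs.

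The intervals show how large a change these libraries could still hold. Limma moves the variance of each gene toward a trend over all genes, so the widths are not set by its own pairs alone. For 75 of the 81 members (92.6%), the whole 95% interval of the mean difference lay within 0.26 of 0, which is a 1.2-fold difference when the values are read as plain log2 values. The same held for 85.9% of all genes. Within a 1.1-fold difference (0.14) lay the interval of 32 members (39.5%, against 22.4% of all genes), and within a 1.5-fold difference (0.58) that of all 81. The 6 members whose interval passed 1.2-fold were *Rpl10*, *Rpl12*, *Rpl13*, *Rpl28*, *Rpl7l1* and *Rps20*. A variance-stabilized log2 scale would understate changes of weakly expressed genes, and which transformation was used is not given in the sources used here.

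**Figure D2:**
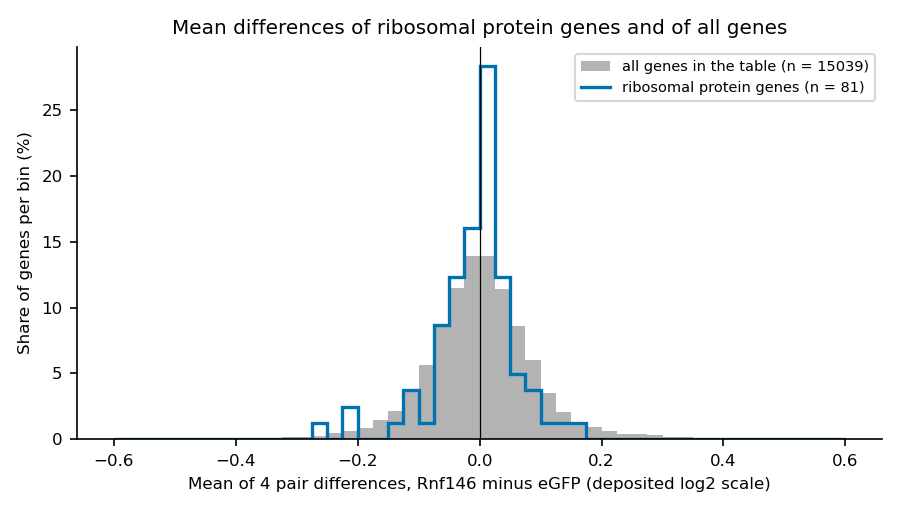
The horizontal axis is the mean of the 4 pair differences (Rnf146 minus eGFP, deposited log2 scale) and the vertical axis is the share of genes per bin in percent, for the 15039 genes of the table (gray) and the 81 ribosomal protein genes (blue outline). Both are centered near 0 and the ribosomal protein genes form the narrower peak, with median sizes of 0.029 against 0.049.

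As a group, the ribosomal protein genes lay slightly to one side or the other in each pair. Their median difference was 0.026, -0.035, -0.043 and 0.037 in pairs 1 to 4, whereas the median of all genes lay between -0.0020 and 0.0037. The number of members above 0 was 46, 32, 23 and 57 of 81. The direction thus turned between pairs, and the mean of the 4 medians was -0.0037 ± 0.041 (SD, n = 4 pairs). The large subunit had medians of 0.0080, -0.057, -0.041 and 0.037 and the small subunit medians of 0.033, -0.0055, -0.043 and 0.024. The medians of both subunits had the same sign in each pair, and that of the small subunit was close to 0 in pair 2. The spread between members was widest in pair 1, with an SD of 0.18 across the 81 genes, and was 0.11, 0.10 and 0.083 in the other pairs. The SD across all genes moved less, from 0.17 in pair 1 to 0.14 in pair 4.

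Among the small subunit genes, *Rps20* had the largest mean difference above 0. *Rps20* (ENSMUSG00000028234, chromosome 4, 3792164 to 3835669, minus strand, GRCm39) encodes a protein of the head of the small subunit. It was at 10.44, 10.54, 10.54 and 10.57 in the eGFP libraries and at 10.77, 10.67, 10.67 and 10.64 in the Rnf146 libraries. The groups did not overlap, and pair 1 held the largest gap. The mean difference was 0.16 ± 0.12 (SD, n = 4 pairs), and its 95% interval ran from 0.037 to 0.29 (adjusted p = 0.28 from limma). *Rps2* (ENSMUSG00000044533, chromosome 17, 24937080 to 24940904, plus strand), whose protein lies near the mRNA entry channel, was at 12.66, 12.60, 12.62 and 12.58 in the eGFP libraries and at 12.46, 12.52, 12.50 and 12.54 in the Rnf146 libraries. All 4 eGFP values of *Rps2* were above all 4 Rnf146 values, and the mean difference was -0.11 ± 0.069 (SD, n = 4 pairs; adjusted p = 0.39 from limma). *Rps3*, which lies at the mRNA entry site, was also below 0 in all 4 pairs, at -0.052 ± 0.035. *Rps27a*, which encodes a ribosomal protein fused to ubiquitin, had differences of 0.13, 0.0050, 0.041 and 0.024, with an adjusted p of 0.71.

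Several small subunit genes showed next to no difference between groups. *Rps14*, a protein of the platform, had the smallest spread of all members, with pair differences of -0.0096, 0.011, 0.0015 and 0.029 that averaged 0.0078 ± 0.016 (SD, n = 4 pairs). *Rps7* had a mean difference of 0.0038 ± 0.032, although its sign turned when pair 1 was left out. *Rps6*, the small subunit protein phosphorylated downstream of mTOR, was at 11.39, 11.37, 11.37 and 11.29 in the eGFP libraries and at 11.37, 11.39, 11.39 and 11.47 in the Rnf146 libraries. The groups of *Rps6* overlapped, and its mean difference was 0.047 ± 0.089 with a 95% interval from -0.066 to 0.16. *Rpsa*, which is also known as the laminin receptor, had a mean difference of -0.015 ± 0.064, and the X-linked *Rps4x* one of 0.0025 ± 0.070. The sign of both turned when pair 1 was left out.

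On the large subunit, the gene with the smallest adjusted p of all members was a paralog, *Rpl7l1*. *Rpl7l1* (ENSMUSG00000063888, chromosome 17, 47084824 to 47093606, minus strand) is related to *Rpl7*, and its protein is known from precursors of the large subunit. It was at 10.16, 10.19, 10.16 and 10.13 in the eGFP libraries and at 9.96, 9.93, 9.95 and 9.99 in the Rnf146 libraries. No Rnf146 library reached the lowest eGFP library, and the pair differences of -0.20, -0.26, -0.21 and -0.14 were alike. The mean difference was -0.20 ± 0.051 (SD, n = 4 pairs), and its 95% interval ran from -0.31 to -0.096. The limma fit with the block gave an unadjusted p of 0.0021 and an adjusted p of 0.12. The gene thus missed the threshold of 0.1. With array weights it passed, at an adjusted p of 0.098.

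Its parent gene showed no such difference. *Rpl7*, a protein of the mature large subunit, was at 11.84, 11.90, 11.94 and 11.92 in the eGFP libraries and at 12.0002, 11.94, 11.90 and 11.92 in the Rnf146 libraries, and had a mean difference of 0.041 ± 0.084 (adjusted p = 0.79). The difference between both genes was not tested. Over 699 aligned coding bases, 443 (63.4%) are identical between *Rpl7* and *Rpl7l1*. A stretch of 90 coding bases of each is shown from the GENCODE transcripts (GRCm39), with the 27 differing bases in capitals. It was chosen as the gap-free stretch of this length with the fewest differing bases, so it shows the paralogs where they are most alike.
Rpl7, coding bases 472 to 561: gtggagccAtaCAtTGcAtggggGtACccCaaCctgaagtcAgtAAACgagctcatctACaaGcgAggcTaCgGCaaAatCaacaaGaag
Rpl7l1, coding bases 400 to 489: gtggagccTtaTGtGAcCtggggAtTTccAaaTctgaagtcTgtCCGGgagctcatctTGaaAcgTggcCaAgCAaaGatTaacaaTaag

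Of the paralogs named for their parent gene, 4 were in the table: *Rpl7l1*, *Rpl22l1*, *Rps4l* and *Rps27l*. *Rps27l*, a p53 target related to *Rps27*, was at 8.68, 8.66, 8.72 and 8.71 in the eGFP libraries and at 8.79, 8.81, 8.75 and 8.76 in the Rnf146 libraries. Its groups did not overlap, and its mean difference was 0.085 ± 0.054 (SD, n = 4 pairs; adjusted p = 0.48 from limma). *Rpl22l1*, the paralog of *Rpl22*, had differences of 0.31, 0.031, -0.043 and 0.054, most of it from pair 1, and an adjusted p of 0.63. Its parent *Rpl22* had a mean difference of 0.029 ± 0.064. *Rps4l*, the paralog of *Rps4x*, had differences of -0.10, 0.35, 0.0026 and 0.086, with an adjusted p of 0.70. Its mean of 0.084 turned sign when pair 2 was left out. The parent *Rps27* had a mean of 0.052, which turned sign when pair 1 was left out. Of these 8 paralogs and parents, 7 had a mean above 0 and *Rpl7l1* one below 0, and none was called.

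The other large subunit genes lay close to 0 or varied between pairs. *Rpl3*, a protein of the peptidyl transferase center with the highest mean value of the members (13.18), had a mean difference of 0.019 ± 0.12 and turned sign without pair 1. *Rpl35*, near the exit tunnel, was among the 3 least variable members at 0.013 ± 0.024. *Rpl39*, a small protein lining the exit tunnel, had a mean of -0.019 ± 0.13 and turned sign without pair 4. Below 0 in all 4 pairs, but with adjusted p-values of 0.55 to 0.81, were *Rpl29* (-0.075 ± 0.065), *Rpl23* (-0.063 ± 0.043) and *Rpl19* (-0.033 ± 0.033). *Rpl5* and *Rpl11*, which form a particle with 5S ribosomal RNA and bind Mdm2, had mean differences of -0.037 ± 0.21 and -0.079 ± 0.13, neither of them called (adjusted p = 0.89 and 0.63), and *Rpl5* turned sign without pair 2 or pair 3. Of the stalk genes, *Rplp0* had a mean of -0.024 ± 0.13, *Rplp1* of 0.072 ± 0.11 and *Rplp2* of 0.033 ± 0.11. *Rplp1* was below 0 in pair 3 only. The signs of *Rplp0* and *Rplp2* turned without pair 1 and without pair 2, respectively.

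The members with the widest spread between pairs were *Rpl13*, *Rpl10* and *Rpl10a*. *Rpl13* (ENSMUSG00000000740, chromosome 8, 123829069 to 123831992, plus strand) was at 12.24, 11.999, 11.82 and 11.66 in the eGFP libraries and at 11.42, 11.66, 11.84 and 11.99 in the Rnf146 libraries. The difference was -0.82 in pair 1, -0.34 in pair 2, 0.020 in pair 3 and 0.33 in pair 4, which averaged -0.20 ± 0.49 (SD, n = 4 pairs; adjusted p = 0.65 from limma). *Rpl10* (ENSMUSG00000008682, chromosome X, 73314418 to 73316741, plus strand), a late-joining protein of the large subunit of which variants have been described in families with autism, was at 10.57, 10.49, 10.61 and 10.18 in the eGFP libraries and at 10.09, 10.17, 10.06 and 10.49 in the Rnf146 libraries. It had the most negative mean of the members, -0.26 ± 0.39, from 3 pairs below 0 and pair 4 at 0.31, and an adjusted p of 0.45. *Rpl10a*, a protein of the L1 stalk, had differences of 0.46, -0.11, -0.19 and -0.079 and a mean of 0.020 ± 0.29, which turned to -0.13 without pair 1.

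These genes share their coding sequence with copies elsewhere in the genome. Ribosomal protein mRNAs have often been copied back into the mouse genome without introns, and a read from such a sequence can be assigned to the gene or to the copy. Of the 31-base stretches in a member's coding sequence, a median of 95.04% also occurred in a transcript of another gene in GENCODE vM39, and 28 members shared every stretch. For 25 members, the table itself held at least 1 row for a single-exon copy with 20% or more of these stretches, 26 rows in all, of which 13 held every stretch. *Rpl13*, which had the widest spread, is shown as an example. Its 636 coding bases are all identical in the copy *Gm12918*, a processed pseudogene on chromosome 4. The first 90 coding bases are shown to make this visible, and this stretch of the copy lies at chr4:10848420-10848509 (GRCm39, plus strand).
Rpl13: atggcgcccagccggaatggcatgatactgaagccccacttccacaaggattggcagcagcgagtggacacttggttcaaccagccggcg
Gm12918: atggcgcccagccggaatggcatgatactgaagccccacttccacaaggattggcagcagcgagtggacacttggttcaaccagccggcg

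In *Gm12918* the pair differences were 0.78, 0.78, -0.13 and -0.35, opposite in sign to those of *Rpl13* in all 4 pairs. With both rows added on the linear scale before the logarithm, the differences were -0.37, -0.035, -0.021 and 0.15, which averaged -0.070 ± 0.22 (SD, n = 4 pairs). *Rpl10* was paired with *Rpl10-ps3*, a single-exon gene on chromosome 9 annotated as protein-coding, with 768 bases against the 865 of *Rpl10*. Per kilobase of transcript, the level of the copy was 12.39 and that of *Rpl10* 10.54 on the log2 scale, so most of the joint signal stood in the row of the copy. The copy had differences of 0.14, -0.0010, 0.22 and -0.025, and *Rpl10* and its copy added together had a mean difference of 0.0023 ± 0.058 in place of -0.26 ± 0.39. For *Rpl10a* and *Rpl10a-ps1* the sum gave -0.038 ± 0.075 in place of 0.020 ± 0.29.

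**Figure D3:**
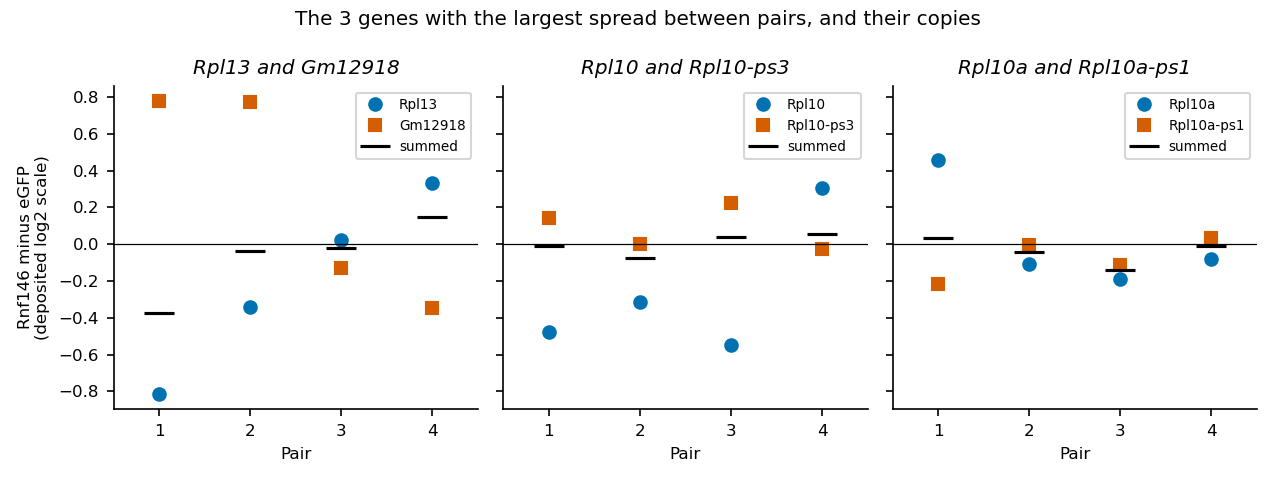
Pair differences (vertical axis, Rnf146 minus eGFP, deposited log2 scale) in each of the 4 pairs (horizontal axis) for *Rpl13*, *Rpl10* and *Rpl10a* (blue circles), for the single-exon copy of each (orange squares) and for both rows added (black lines). In *Rpl13* the gene and the copy lie on opposite sides of 0 in every pair, and in all 3 panels the sum lies closer to 0 than the widest points of the gene.

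Over the 25 members with such a row, the median SD of the 4 pair differences was 0.13, against 0.081 for the 56 members without one. The median level also differed between both sets, at 10.39 and 11.57 on the deposited scale, and its part in the spread was not tested. After the copies were added, the SD was smaller in 24 of the 25 and larger in 1, *Rps29*, and its median was 0.073. Averaging 2 rows can lower a spread by itself, and its part was not tested. Gene and copy had opposite signs in 58 of 104 comparisons of a pair (55.8%), in all 4 pairs for *Rpl13*, *Rpl21*, *Rpl23* and *Rpl27*, and in none for *Rpl5* and *Rps29*. Unrelated rows would also often differ in sign, and their share was not computed. Whether gene and copy are linked in sign was not tested. After summing, the largest mean difference by size was the 0.12 of *Rps20*, the widest SD the 0.22 of *Rpl13* and the smallest adjusted p 0.41 from limma. Summing added rows on a scale that may not be a plain log2 scale, so the sums are approximate.

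**Figure D4:**
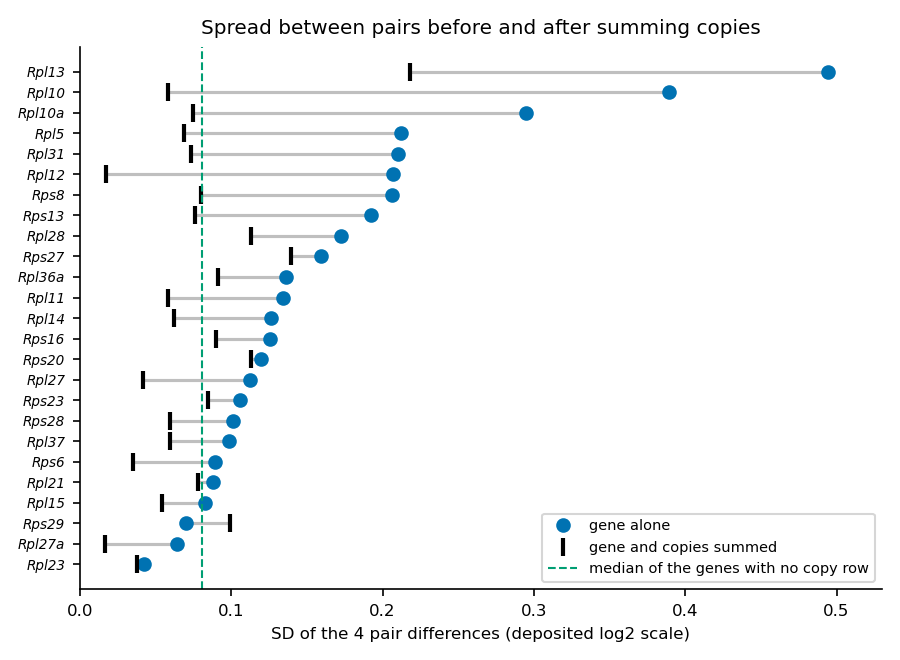
Each row is 1 of the 25 ribosomal protein genes with a single-exon copy in the table, and the horizontal axis is the SD of the 4 pair differences on the deposited log2 scale. Blue circles are the gene alone, black ticks the gene and its copies added, and the dashed line the median of the 56 genes with no such row (0.081). The SD was smaller after adding in all but *Rps29*.

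The genes named above for values that kept 1 sign differed in this respect. *Rpl7l1*, *Rps2* and *Rps27l* had no copy row. They shared 51.6%, 91.2% and 61.8% of their coding stretches, respectively, with transcripts of any other gene. *Rps20* had the copy *Gm4332*, a processed pseudogene on chromosome 3, in which 345 of 346 aligned bases match. Its only differing base is in capitals in the stretch below, which lies in the copy at chr3:119503388-119503477 (GRCm39, plus strand).
Rps20, coding bases 235 to 324: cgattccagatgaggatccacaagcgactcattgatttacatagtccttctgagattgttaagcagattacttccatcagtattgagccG
Gm4332: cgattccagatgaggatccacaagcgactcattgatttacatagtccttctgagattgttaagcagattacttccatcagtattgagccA
Added to this copy, *Rps20* had differences of 0.26, 0.12, 0.13 and -0.021, so that pair 4 no longer had the sign of the others. The mean was 0.12 ± 0.11 (SD, n = 4 pairs). *Rpl23*, added to its copy *Gm9794*, had differences of -0.055, -0.055, 0.019 and -0.0014, so that pair 3 turned sign. Its mean was then -0.023 ± 0.038 in place of -0.063 ± 0.043.

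The TOP tract was looked for at the transcription starts of the members, because it is the element for which ribosomal protein mRNAs are known. A tract was counted where a C with 5 or more further C or T began within 5 bases of a RefSeq start (GRCm38.p6), on the transcript strand. It was found in 26 of the 60 members with a start in the table of promoters (43.3%) and in 1449 of 11133 of all genes with one (13.0%). This definition depends on the annotated start, so a member without a match may still begin with a tract at another start. Windows of 30 bases centered on the start are shown for *Rps6*, *Rps2* and the paralogs *Rpl22l1* and *Rpl7l1*, with the tract in capitals. They lie at chr4:86857353-86857382 (minus strand), chr17:24720048-24720077 (plus), chr3:28805493-28805522 (plus) and chr17:46782642-46782671 (minus).
Rps6: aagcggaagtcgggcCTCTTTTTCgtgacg
Rps2: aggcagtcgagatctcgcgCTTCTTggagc
Rpl22l1: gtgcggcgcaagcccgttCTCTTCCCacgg
Rpl7l1: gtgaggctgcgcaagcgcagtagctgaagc
*Rpl7l1*, the member with the smallest adjusted p, held no such tract in this window.

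None of the 153 measured genes from 7 lists of the translation machinery was called in the limma fit either, and 10 (6.54%) had an unadjusted p below 0.05, beside 12.4% of all genes. *Fau*, which encodes a ribosomal protein fused to a ubiquitin-like protein, and *Rack1*, a ribosome-bound scaffold, had mean differences of -0.020 and 0.0069. Of the 14 elongation and termination factors, the largest difference was that of *Eif5a2*, an isoform of the factor that relieves stalled ribosomes, at 0.20 ± 0.083 (adjusted p = 0.14), above 0 in all 4 pairs. Among the 36 initiation factors it was that of *Eif3b*, a core subunit of eIF3, at -0.14 ± 0.10 (adjusted p = 0.32). The 12 genes listed as other TOP messages, whose own tracts are not reported here, had a median of 0.045. Of these, 10 of 12 were above 0, beside 7598 of all 15039 genes, and the largest was *Tpt1* at 0.12 ± 0.14 (adjusted p = 0.46).

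The genes that make ribosomes and set their number, part of these lists, were likewise not called. Of 53 ribosome biogenesis genes, 33 had a mean below 0 and 20 a mean above 0, and the largest difference was that of *Rrp9*, which acts in processing of ribosomal RNA, at -0.14 ± 0.036 (adjusted p = 0.27). In the 13 RNA polymerase I genes, *Ubtf*, the factor that opens ribosomal DNA for transcription, was at -0.13 ± 0.061 (adjusted p = 0.31). Both were below 0 in all 4 pairs. In the 22 mTOR pathway genes, *Mtor* itself was above 0 in all 4 pairs at 0.16 ± 0.15 (adjusted p = 0.33). The medians of these 6 lists, from elongation to mTOR, lay between -0.084 and 0.092 in every pair.

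Markers of several cell types and neighboring regions differed between the groups or between pairs. In bulk tissue, fewer cells of a type and less RNA per cell cannot be told apart. Oligodendrocyte markers had medians of -0.12, 0.52, 1.00 and 0.54 in pairs 1 to 4 (0 of 8 called), and their summed log2 level ran from 16.02 to 16.65 in the eGFP and from 16.46 to 17.10 in the Rnf146 libraries. Striatal neuron markers had medians of -0.13, 1.49, 0.81 and 0.35 (0 of 6 called), with summed levels of 12.62 to 13.43 and 13.29 to 14.11. All 4 septum markers were called higher, with summed levels of 11.65 to 11.93 and 12.35 to 12.66. Of the excitatory neuron markers, all of them in the table, 2 of 8 were called and all 8 had a mean below 0. Their summed levels were 16.78 to 16.92 in the eGFP and 16.58 to 16.71 in the Rnf146 libraries. Of the inhibitory neuron markers 3 of 6 were called higher and the other 3 had a mean below 0, among them *Vip* at -0.23. The 1 ependymal marker in the table was called higher, while no marker of oligodendrocyte precursors, astrocytes, microglia or endothelial cells was called. All 6 microglia markers still had a mean below 0, with medians of -0.13, -0.27, -0.10 and -0.067 in pairs 1 to 4. An unadjusted p below 0.05 from limma with the block was found for 3 of these 6, beside 12.4% of all genes. The same held for all 8 oligodendrocyte, all 6 striatal, 7 of 8 excitatory, 4 of 6 inhibitory and all 4 septum markers. It also held for the ependymal marker, but for no marker of oligodendrocyte precursors, astrocytes or endothelial cells. The lowest value of any gene in the table was 7.86, and the lowest value of a marker was 8.38, for a septum marker. The medians of the ribosomal protein genes moved by at most 0.043 in the same pairs. The part of tissue composition in them was not tested.

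**Figure D5:**
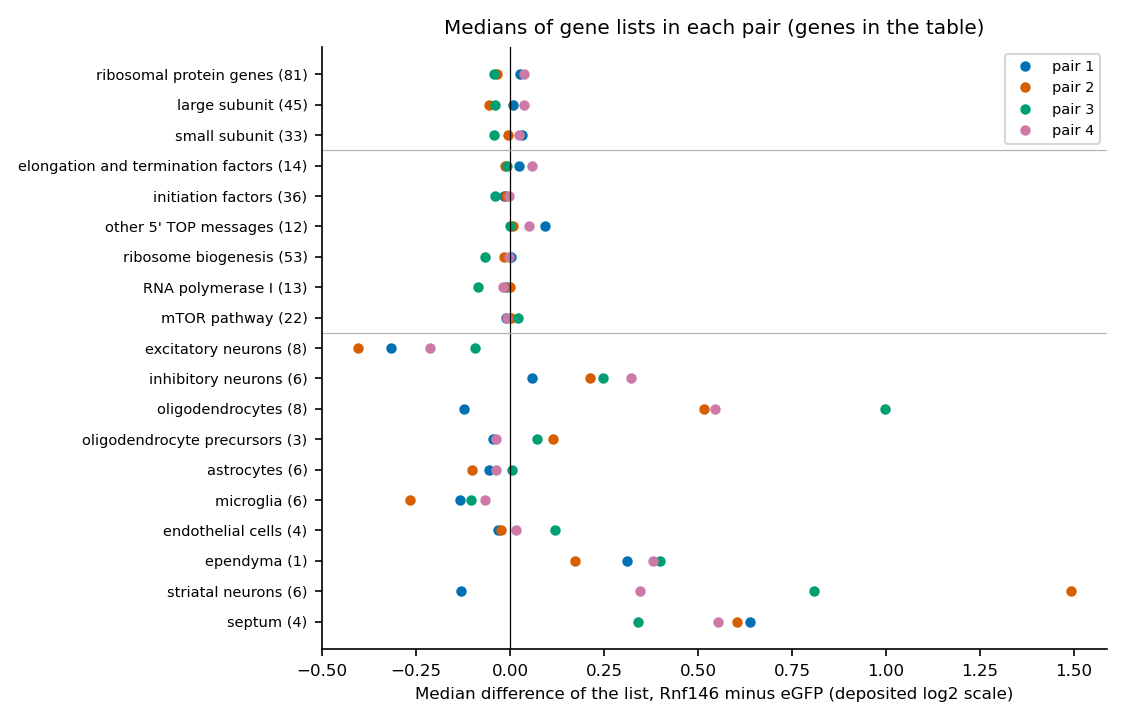
The horizontal axis is the median difference of a gene list (Rnf146 minus eGFP, deposited log2 scale) and each colored point is 1 of the 4 pairs, with the number of genes in the table in parentheses. The ribosomal protein genes and the 6 lists of the translation machinery shown stay between -0.084 and 0.092, whereas the medians of the marker lists below the lower line range from -0.41 to 1.49, with astrocytes and endothelial cells close to 0.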

How the data were processed

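The authors trimmed reads from stranded mRNA libraries with Cutadapt and quantified transcripts with Salmon 1.9.0 against GENCODE vM30 (GRCm39). The deposited values are log2 values between 7.86 and 18.8 for 15039 genes in 8 libraries. The transformation and the centring within replicate numbers are not given in the sources used here, and the depth of the libraries, which sets how precisely reads can be counted, is not known.

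The limma package 3.58.1 (lmFit, eBayes with trend; R 4.3.3) was run on all genes, with Benjamini-Hochberg adjustment over them. The replicate number was a block because the centring ties same-numbered libraries together and leaves 4 independent differences. How many mice a library holds, and whether those of a number shared a litter or a day, is not stated. The p-values and intervals use variances that eBayes moved toward a trend over all genes. They thus rest on the 4 pair differences of a gene in these samples and on the spread of other genes. The SD of the pair differences was 0.016 for *Rps14* and 0.39 for *Rpl10*, while the half-widths of their limma intervals were 0.095 and 0.28. The fit was tested on simulated data. Copies were found by shared stretches of 31 coding bases in GENCODE vM39, with 20% as the minimum, using Biopython 1.88 in Python 3.11.15. Promoter sequences are RefSeq's.

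Members, lists and tests were chosen with earlier results of these data known. Named genes were those called, the 6 largest in each direction with 1 sign in all pairs (3 qualified above 0), the 3 most and 3 least variable members, paralogs (*Rpl3l*, *Rpl10l* and *Rpl39l* not analysed here) and their parents, stalk genes, members with known roles, and the leading gene of each list (1 of these is not reported here). *Rpl12*, *Rpl21*, *Rpl27*, *Rpl28*, *Rpl37* and *Rps29* were named after their values were seen. Alternatives were median centring, quantile normalization, the lowest 10% of mean values left out, no block, each pair left out, an adjusted p of 0.05, array weights, robust and untrended variances, and removal of a trend with transcript length and GC content. Summing of copies was chosen after the data were seen.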

Additional observations from a re-analysis of the deposited data

Results flagged for a closer look

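Among 50 sets of 4 pair differences examined for a value far from the others, 2 had one, and chance gives about 1 in 20. *Rps27* (chromosome 3, 90119819 to 90120977, minus strand, GRCm39), a small subunit protein, stood apart in pair 1 at 0.289, while the other pairs lay between -0.052 and -0.0045. The gene's copy *Rps27rt* was at 0.26 in pair 1 as well, and between -0.054 and 0.10 in the others. *Rps4x* stood apart in pair 1 at 0.107, against -0.048 to -0.022 in the other pairs. Neither gene was called, with adjusted p-values of 0.79 and 0.99 from limma with the block.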

How the results depend on the processing

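No ribosomal protein gene was called with a filter on low values, median centring, quantile normalization, an adjusted p of 0.05, robust or untrended variances, removal of the length and GC trend, summed copies, or any pair left out (0 to 0). Their median difference, -0.0037, stayed between -0.017 and 0.0093, and *Rnf146* stayed between 2.58 and 2.69. Without the replicate block, which takes the centred values for 8 independent libraries, 3226 genes were called (21.5%), 30 of the 153 genes of the lists (9 higher, 21 lower) and 8 members, of which *Rpl37*, *Rps20* and *Rps27l* were higher and *Rpl23*, *Rpl27*, *Rpl29*, *Rpl7l1* and *Rps2* lower. With array weights 355 genes and 1 member, *Rpl7l1*, were called, and at an adjusted p of 0.05 80 genes. Leaving out a pair gave 14 to 421 genes called over the table: 421 without pair 1, 42 without pair 2 and 14 without pair 4. The causes were not tested. Signs turned for *Rps4x* under quantile normalization (-0.00011), array weights (-0.0087) and length and GC removal (-0.0038), for *Rps7* under the latter (-0.0011), for *Rpl10a* under array weights (-0.025) and summed copies (-0.038), and for *Rpl10* under summed copies (0.0023). With a pair left out, signs turned within -0.13 to 0.090 for *Rpl10a*, -0.38 to 0.0035 for *Rpl13*, -0.020 to 0.073 for *Rpl3*, -0.077 to 0.020 for *Rpl39*, -0.13 to 0.031 for *Rpl5*, -0.057 to 0.037 for *Rplp0*, -0.014 to 0.067 for *Rplp2*, -0.027 to 0.087 for *Rps27*, -0.0044 to 0.15 for *Rps4l*, -0.032 to 0.019 for *Rps4x*, -0.0057 to 0.019 for *Rps7* and -0.043 to 0.0070 for *Rpsa*. Depth is unknown and cannot be weighed.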
